A study of Drosophila melanogaster with 19 samples.

Results

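*Drosophila melanogaster* embryos that lacked the endogenous *chiffon* gene and carried a *chiffon* transgene without its N-terminal coding part (ΔN) were compared with wild-type (WT) embryos by RNA-seq. The comparison rests on 8 of the 19 libraries of the study, 4 of ΔN embryos and 4 of WT embryos, chosen by their labels alone. Each library was made from total RNA of about 6 GFP-positive embryos at stages 12 to 14, picked by hand and depleted of rRNA. ΔN embryos carried a different *chiffon* null allele on each copy of chromosome 2, together with *Actin-Gal4* and *UAS-GFP*, and a single copy of the ΔN transgene under the genomic regulatory sequences of *chiffon*. WT embryos came from the parental *Actin-Gal4* and *GFP* stocks and carried no *chiffon* mutant allele. Both groups thus expressed GFP under Gal4, whereas the mutant alleles, the transgene and the crosses that brought them together were found only in the ΔN embryos and cannot be told apart from each other in this comparison. The other genotypes are used only as a yardstick. They are *chiffon* null embryos without a transgene (null, 4 libraries), and null embryos that carried a single copy of the full-length transgene (FL, 3 libraries, numbered 2 to 4 in the table) or of the full-length transgene with an early stop codon (FLWF24, 4 libraries).

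The *chiffon* locus encodes 2 polypeptides with separate partners. Chiffon-A, from the N-terminal part, is the Dbf4-like protein that binds and activates the kinase Cdc7 in the Dbf4-dependent kinase (DDK), which acts at origins of DNA replication. Chiffon-B, from the C-terminal part, binds the acetyltransferase Gcn5 and is the defining subunit of the CHAT complex, which acetylates histone H3. Per the study, the ΔN and FLWF24 transgenes make Chiffon-B but not Chiffon-A. The question of the comparison is therefore which transcripts of late embryos differ from wild type when the CHAT subunit is provided without the DDK subunit.

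The 4 ΔN libraries held 5161281 to 15416304 reads assigned to genes, and the 4 WT libraries 8710630 to 13692823. Expression is given as CPM, the reads of a gene relative to the total of its library, after scaling of the libraries by the trimmed mean of M-values. Most reads mapped to several places: 59.3 to 85.3% of all reads in ΔN libraries and 62.9 to 71.7% in WT libraries. Reads of the *GFP* and *Gal4* reporters were found in every library. *Gal4* had 81.1 to 133 CPM in ΔN embryos and 139 to 254 CPM in WT embryos, groups that did not overlap (two-sided exact permutation test, p = 0.0286, the smallest that 70 splits of 4 and 4 libraries allow, 0.0929 after adjustment over 13 library measures). Markers of muscle, neurons, glia, epidermis, trachea, hemocytes, fat body, salivary gland, gut, amnioserosa and germ cells were detected, as the label of whole embryos requires, and the 3 testis markers *Mst98Ca*, *ProtA* and *dj* were at 0 in all 8 libraries. Yolk protein and eggshell genes of adult females summed to 4.99 to 15.9 CPM in ΔN libraries and 0 to 5.52 CPM in WT libraries.

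Embryos of stages 12 to 14 differentiate muscle and cuticle within a few hours, so small differences in age move many transcripts. A stage score was computed for each library as the mean log2(CPM + 1) of 52 late muscle and cuticle genes minus that of 34 genes of earlier embryos. It was -0.04, -1.60, -1.05 and 1.69 in ΔN libraries 1 to 4, and -0.89, 1.49, 0.12 and 1.38 in WT libraries 1 to 4. The groups overlapped, and their means of -0.25 ± 1.44 in ΔN and 0.52 ± 1.13 in WT differed by less than the spread (SD, n = 4 each, two-sided exact permutation test, p = 0.429). The ΔN libraries varied among themselves. The muscle genes *Mhc*, *Mlc2*, *up* and *wupA* summed to 2492, 144, 248 and 3579 CPM in ΔN libraries 1 to 4 and to 1579, 5568, 2713 and 3060 CPM in WT libraries 1 to 4. ΔN libraries 2 and 3 thus held less muscle RNA than any WT library, while ΔN libraries 1 and 4 lay within the WT range. In RNA of whole embryos, fewer cells of a type and less RNA per cell cannot be told apart. The part of embryo age in the gene differences given here was not tested. A fit chosen after seeing the data took the stage score as a covariate in place of the factor of unwanted variation. It shared 8 of the 9 calls, but so did a fit with neither, so this overlap says nothing about age. That factor, estimated from the replicates, was -0.42, -1.07, -1.16 and 0.19 in ΔN libraries 1 to 4. In WT libraries 1 to 4 it was -1.05, 1.08, 0.19 and 0.24.

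**Figure D1:**
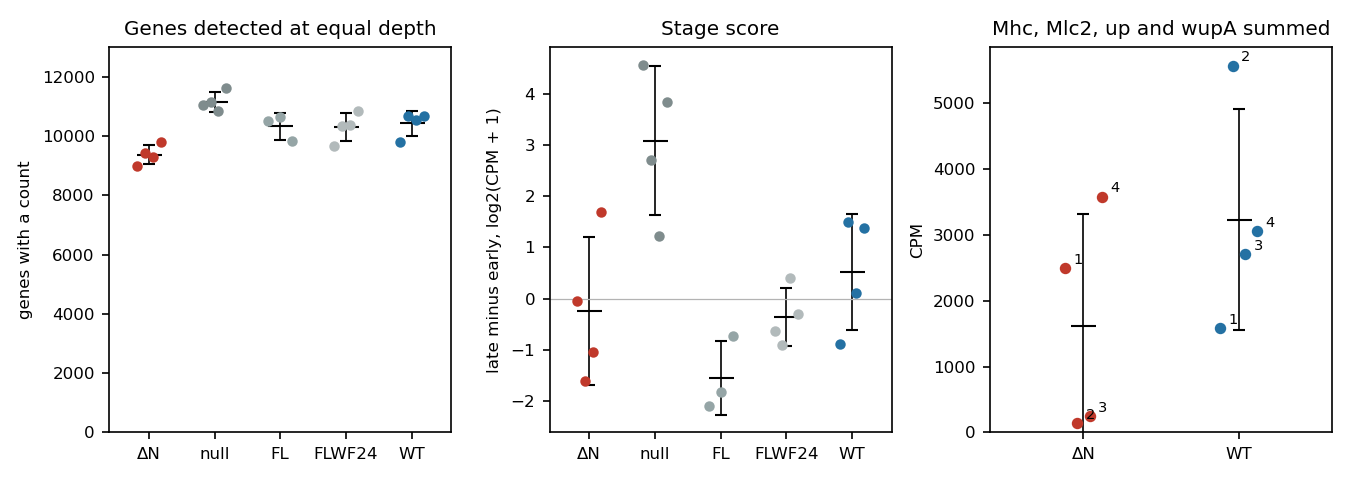
Number of genes with at least 1 count at an equal depth of 5161281 gene counts, stage score (late minus early genes, log2(CPM + 1)) and summed CPM of 4 muscle genes, with a point for each library and mean ± SD as bars. The 4 ΔN libraries have 8987 to 9787 genes detected, all below the 9796 to 10690 of the WT libraries, whereas the stage scores of the groups overlap. Numbers beside the points of the muscle panel are replicate numbers.

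ΔN embryos differed from WT embryos at few genes by the test across all genes. Of 11978 genes tested, 9 passed the edgeR quasi-likelihood test, which is 0.0751% of them. A call needed p under 0.05 after Benjamini-Hochberg adjustment across the tested genes and a change by 0.5 or more on the log2 scale. Transcripts of *Prx6c* and *CG9344* were higher in ΔN (2 genes, 0.0167%), and transcripts of *qvr*, *Tektin-C*, *Tmtc2*, *Cyp4p2*, *snoRNA:CG32479-a*, *UK114* and *sun* were lower (7 genes, 0.0584%). Without adjustment, 367 genes were higher and 888 lower in ΔN at p under 0.05, 10.5% of those tested, and the median log2 fold change of all genes was -0.11. The count of 9 depended on single libraries. It was 38 without ΔN replicate 1, 31 without ΔN replicate 4, 4 without ΔN replicate 3 and 1 without ΔN replicate 2. Leaving out WT replicates 2, 3 or 4 gave 1, 2 and 1, leaving out FL replicates 2, 3 or 4 gave 5, 4 and 16, leaving out FLWF24 replicates 1, 2, 3 or 4 gave 4, 4, 3 and 1, and leaving out null replicate 4 gave 4. The FL, FLWF24 and null libraries enter through the shared estimate of the spread and the factor of unwanted variation. The share of higher and lower calls also moved with the scaling, from 2 higher and 7 lower with the trimmed mean of M-values to 2 higher and 2 lower with relative log expression or with the upper quartile. *qvr* alone kept its call whichever of the 19 libraries was left out, and *Prx6c* and *Tektin-C* lost theirs in 6 of the 19 fits and the other 6 genes in 14 or 15.

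*Prx6c* encodes a peroxiredoxin of the 1-cysteine class, an enzyme that reduces peroxides. It lies at chr2R:10418718-10419761 on the forward strand. It had 85.4, 173, 135 and 195 CPM in ΔN libraries 1 to 4, against 61.2, 37.1, 58.2 and 34.2 CPM in WT libraries 1 to 4. Every ΔN library lay above every WT library, and the log2 fold change was 1.504 (SE 0.27, adjusted p = 0.0384). Its close copy *Prx6b* lies on the same arm and had 12.5, 17.7, 17.3 and 41.2 CPM in ΔN libraries, against 1.48, 1.45, 11.7 and 10.9 CPM in WT libraries. The ΔN libraries of *Prx6b* were again the higher ones without passing the test (log2 fold change 1.98, SE 0.73, adjusted p = 0.351). How reads of the 2 copies were divided depends on the authors' read assignment, so the split between them is uncertain. The third member of the class, *Prx6a* on arm 2L, had 8.70, 11.3, 16.04 and 11.5 CPM in ΔN and 16.9, 7.48, 7.17 and 4.62 CPM in WT, which overlap.

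*CG9344* lies at chr2R:20977056-20977600 on the forward strand. It had 31.6, 43.5, 37.4 and 29.6 CPM in ΔN libraries, against 15.1, 11.9, 8.87 and 12.5 CPM in WT libraries. The groups did not overlap, and the log2 fold change was 1.34 (SE 0.26, adjusted p = 0.0429). Its exons overlap those of *CG15650* on the other strand, and whether the library kit kept the strand is not given in the sources used here, so reads of the 2 genes may not have been told apart.

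Among the 7 genes that were lower in ΔN, 4 had next to no reads in ΔN libraries and were found in every WT library. *qvr*, also called sleepless, encodes a membrane-anchored protein that regulates a potassium channel of neurons, and it lies at chr2R:11442505-11451604. A single read was counted for *qvr* over all 4 ΔN libraries, in ΔN replicate 2, against 511 reads over the 4 WT libraries. The level was 0, 0.101, 0 and 0 CPM in ΔN, against 4.36, 21.2, 4.998 and 14.9 CPM in WT. The ratio of WT to ΔN was 423, with a 95% exact counting interval from 75.6 to 16748, and the fitted difference had an adjusted p of 0.000896.

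*Tektin-C*, a microtubule protein of cilia and flagella, lies at chr3L:5794405-5796543. It had 1 read in ΔN libraries, in replicate 4, and 1794 reads in WT libraries. Its level was 27.2, 49.9, 33.5 and 42.6 CPM in WT, and the ratio of WT to ΔN was 1486 (95% exact counting interval 266 to 58716, adjusted p = 0.0384). *Cyp4p2*, a cytochrome P450, lies at chr2R:9237512-9239831 within the gene *hig*. It had 1 read in ΔN libraries, in replicate 3, and 2401 reads in WT libraries, where its level was 59.8, 23.8, 53.9 and 55.1 CPM. The ratio of WT to ΔN was 1988 (95% exact counting interval 357 to 78571, adjusted p = 0.0429). *UK114*, which encodes a small conserved protein of the YjgF family, lies at chr2L:15274181-15275091. It had 0 reads in each ΔN library and 5.60, 10.5, 2.66 and 5.79 CPM in the WT libraries. With a floor of 3 counts in each ΔN library, *UK114* was at least 17.5-fold lower in ΔN (adjusted p = 0.0429). These intervals and floors cover counting error only.

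The other 3 lower genes were still expressed in ΔN embryos. *Tmtc2* belongs to a family of transmembrane enzymes that add mannose to proteins and lies at chr2L:922793-958098. It had 12.4, 8.69, 5.69 and 2.64 CPM in ΔN, against 33.1, 33.4, 35.6 and 53.1 CPM in WT (log2 fold change -2.47, SE 0.47, adjusted p = 0.0429). *snoRNA:CG32479-a*, at chr3L:891250-891475 within *Usp10*, had 6.39, 12.3, 9.21 and 6.987 CPM in ΔN, against 79.5, 40.7, 79.3 and 44.4 CPM in WT (log2 fold change -2.76, SE 0.53, adjusted p = 0.0429). *sun*, at chrX:15847859-15849258, encodes the epsilon subunit of the mitochondrial ATP synthase, which is also known as a secreted ligand. It had 118, 127, 102 and 85.0 CPM in ΔN, against 303, 264, 256 and 217 CPM in WT (log2 fold change -1.20, SE 0.23, adjusted p = 0.0455). In none of these 3 genes did the groups overlap. The called genes lay on arms 2L (2), 2R (4), 3L (2) and X (1), and none lay on 3R, which holds 24.7% of the genes tested. Arms 2L and 2R, the chromosome of the *chiffon* alleles, hold 17.5 and 20.3% of the genes tested.

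**Figure D2:**
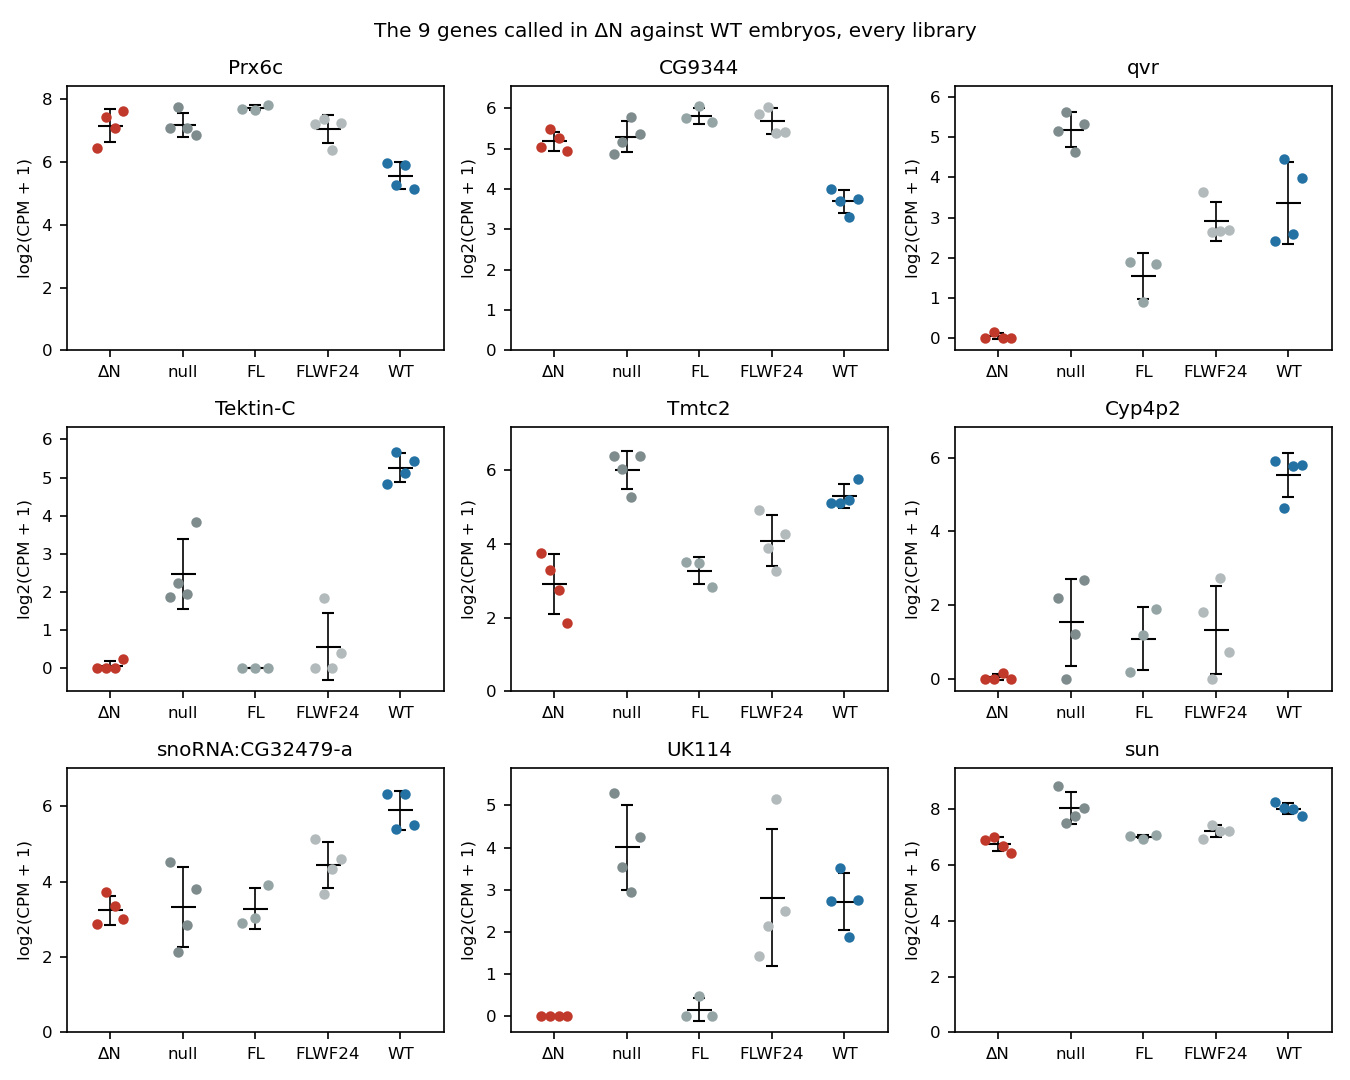
Level of each of the 9 called genes as log2(CPM + 1), with a point for each library of the 5 genotypes and mean ± SD as bars (n = 4, FL n = 3). *qvr*, *Tektin-C*, *Cyp4p2* and *UK114* sit at or next to 0 in all 4 ΔN libraries, and *Prx6c* and *CG9344* are higher in the 4 genotypes with *chiffon* alleles than in WT.

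The same 9 genes were read against the other transgenic embryos, which share the *chiffon* alleles but not the ΔN transgene. In this contrast of ΔN with the mean of FL and FLWF24, *qvr* passed (log2 fold change -6.69, SE 0.96, adjusted p = 0.00213) and the other 8 did not. *qvr* averaged 0.0252 ± 0.0505 CPM in ΔN, 36.9 ± 10.5 CPM in null, 2.04 ± 1.04 CPM in FL, 6.86 ± 3.08 CPM in FLWF24 and 11.4 ± 8.14 CPM in WT (SD, n = 4, FL n = 3). ΔN was thus the lowest genotype for *qvr*, and null the highest.

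For the 2 higher genes, the other genotypes with *chiffon* alleles were above WT as well. *Prx6c* averaged 147 ± 48.1 CPM in ΔN, 149 ± 43.6 CPM in null, 210 ± 11.3 CPM in FL, 135 ± 36.2 CPM in FLWF24 and 47.7 ± 14.0 CPM in WT. Its log2 fold change over FL and FLWF24 was -0.22 (95% interval -0.68 to 0.25). *CG9344* averaged 35.5 ± 6.26 CPM in ΔN, 39.3 ± 11.05 CPM in null, 55.7 ± 8.14 CPM in FL, 51.1 ± 11.6 CPM in FLWF24 and 12.1 ± 2.56 CPM in WT. Its log2 fold change over FL and FLWF24 was -0.65 (95% interval -1.10 to -0.20, adjusted p = 0.217).

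For *Tektin-C* and *Cyp4p2*, WT was the genotype with the high level. *Tektin-C* averaged 0.0472 ± 0.0944 CPM in ΔN, 5.63 ± 5.15 CPM in null, 0.730 ± 1.25 CPM in FLWF24 and 38.3 ± 9.97 CPM in WT, and it had no reads in the 3 FL libraries. *Cyp4p2* averaged 0.0284 ± 0.0569 CPM in ΔN, 2.59 ± 2.41 CPM in null, 1.37 ± 1.29 CPM in FL, 2.22 ± 2.54 CPM in FLWF24 and 48.1 ± 16.4 CPM in WT. For *Tmtc2*, *snoRNA:CG32479-a* and *sun* the intervals over FL and FLWF24 included 0, with log2 fold changes of -0.76 (-1.55 to 0.04), -0.68 (-1.61 to 0.24) and -0.33 (-0.74 to 0.09). *snoRNA:CG32479-a* averaged 8.73 ± 2.69 CPM in ΔN, 11.1 ± 8.26 CPM in null, 9.16 ± 4.10 CPM in FL, 22.1 ± 9.40 CPM in FLWF24 and 61.0 ± 21.3 CPM in WT. *Tmtc2* and *sun*, in contrast, were not below WT in null on average. In the same order of genotypes, *Tmtc2* averaged 7.36 ± 4.17, 66.1 ± 20.7, 8.88 ± 2.36, 17.5 ± 8.76 and 38.8 ± 9.59 CPM. *sun* averaged 108 ± 18.7, 277 ± 120, 129 ± 5.93, 148 ± 21.3 and 260 ± 35.3 CPM. *UK114* was at 0 in ΔN and averaged 18.3 ± 13.9 CPM in null, 0.129 ± 0.224 CPM in FL, 11.1 ± 15.7 CPM in FLWF24 and 6.14 ± 3.24 CPM in WT, and its difference from the other rescues did not pass (adjusted p = 0.0973). The 2 contrasts share the ΔN libraries, so they are not independent.

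**Figure D3:**
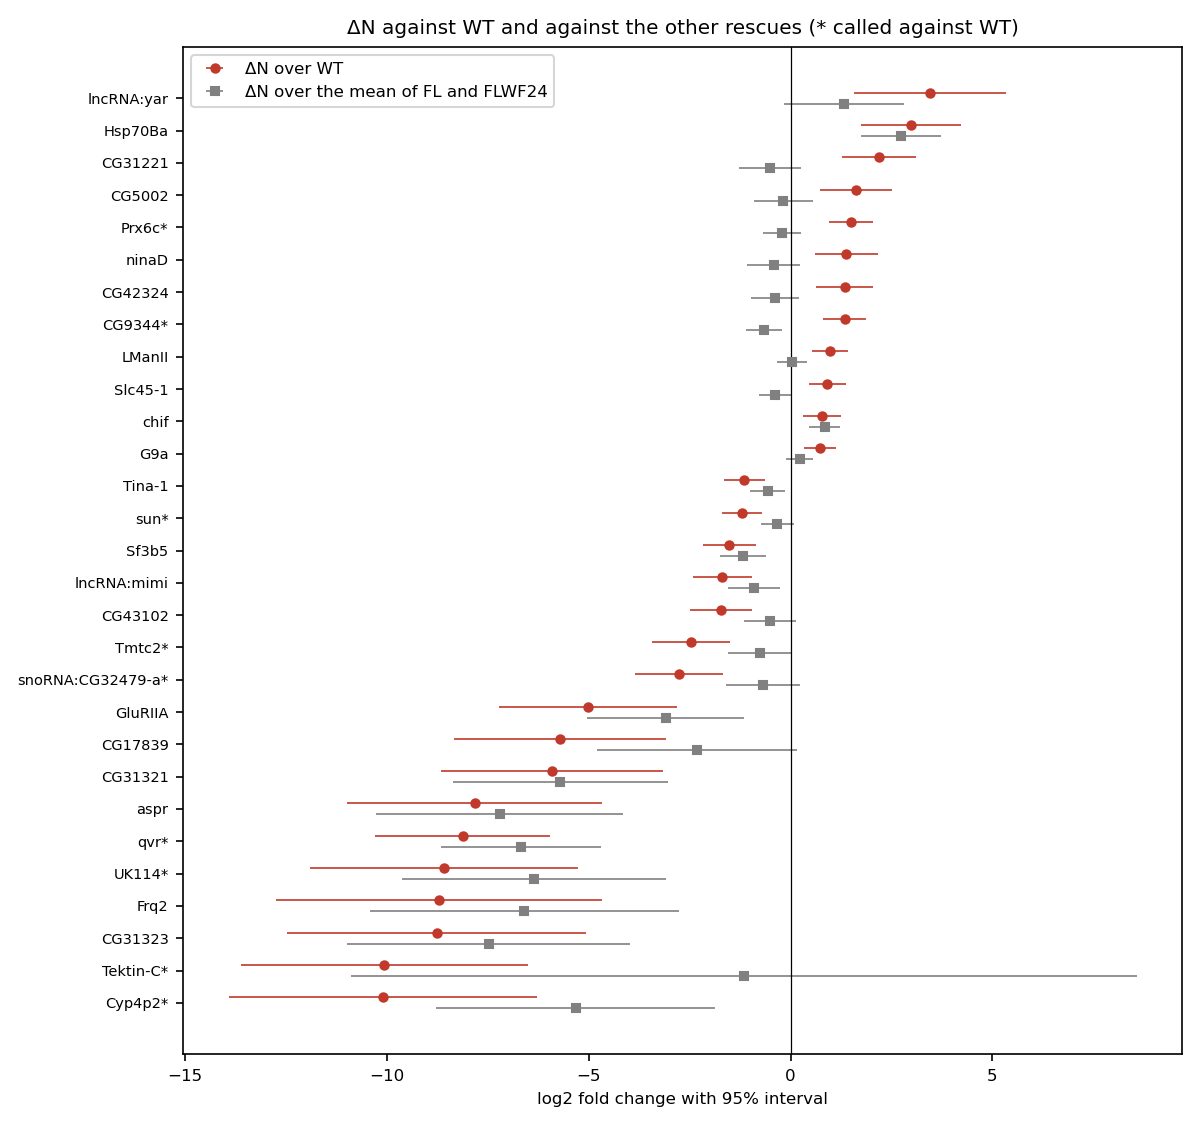
Log2 fold change with its 95% interval for 29 genes in ΔN over WT (circles) and in ΔN over the mean of FL and FLWF24 (squares), sorted by the first, with called genes marked by an asterisk. For 13 of the 29 genes, among them *qvr*, *Hsp70Ba*, *aspr* and *chif*, the intervals of both contrasts lie on the same side of 0, whereas *Prx6c*, *CG31221* and *LManII* are higher than WT with intervals that include 0 against the other rescues. Apart from *chif*, the genes were chosen for their difference from WT, and both contrasts share the ΔN libraries. The 13 are thus no independent support, and the share of all tested genes with this pattern was not computed.

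Beyond the 9 calls, the genes with the smallest p among those whose libraries did not overlap are given as values that did not pass. Libraries of ΔN and WT did not overlap at 187 genes that were higher in ΔN and 422 that were lower, 1.56 and 3.52% of those tested and 5.08% in all. *Hsp70Ba*, a copy of the inducible chaperone Hsp70, came closest among the higher ones. It had 93.2, 21.9, 46.4 and 33.6 CPM in ΔN, against 4.51, 14.4, 10.6 and 13.6 CPM in WT (log2 fold change 2.98, SE 0.60, adjusted p = 0.0583). Over FL and FLWF24 it passed at 2.73 on the log2 scale (SE 0.48, adjusted p = 0.0135). The Hsp70 copies are near-identical, so reads may be split among them.

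*CG31221* had 133, 92.5, 121 and 80.1 CPM in ΔN and 37.2, 27.9, 17.7 and 18.8 CPM in WT (adjusted p = 0.0744). *LManII*, a lysosomal mannosidase, had 224, 221, 278 and 211 CPM in ΔN and 144, 123, 92.4 and 126 CPM in WT (adjusted p = 0.0965). In FL and FLWF24 embryos *CG31221* averaged 167 and 148 CPM and *LManII* 234 and 227 CPM, above the WT means of 25.4 and 122 CPM. *G9a*, a histone H3 lysine methyltransferase, was the most even across the ΔN libraries. It had 253, 251, 264 and 249 CPM in ΔN and 108, 180, 159 and 150 CPM in WT (log2 fold change 0.73, SE 0.20, adjusted p = 0.215). The other genotypes with *chiffon* alleles were also above the WT mean of 149 CPM. *G9a* averaged 237 CPM in null, 231 CPM in FL and 202 CPM in FLWF24. Its log2 fold change over FL and FLWF24 was 0.22 (SE 0.16) and did not pass (adjusted p = 0.599). Further higher genes by this rule were *Slc45-1*, a sugar transporter, *CG42324*, *lncRNA:yar*, *CG5002* and *ninaD*, a scavenger receptor of carotenoid uptake, with log2 fold changes of 0.92, 1.34, 3.46, 1.63 and 1.38 and adjusted p from 0.160 to 0.215. Each of these genes was also above WT on average in FL and in FLWF24. *ninaD*, for example, averaged 87.9 CPM in FL and 51.9 CPM in FLWF24, against 50.3 CPM in ΔN and 19.7 CPM in WT. In null embryos *ninaD* was lower, at 11.4 CPM.

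Among the lower ones, *aspr* came closest. It had no reads in any ΔN library and 1.71, 24.8, 6.77 and 3.67 CPM in WT, so that it was at least 26.3-fold lower in ΔN with a floor of 3 counts in each library (adjusted p = 0.0556). Over FL and FLWF24, *aspr* passed with an adjusted p of 0.0357. It averaged 1.37 CPM in FL and 19.1 CPM in null, and had 0, 0.886, 21.9 and 6.13 CPM in FLWF24 libraries 1 to 4. *CG31323* and *Frq2*, a calcium sensor of nerve terminals, also had no reads in ΔN. *CG31323* had 2.96, 8.60, 9.92 and 6.67 CPM in WT and was at least 20.1-fold lower (adjusted p = 0.0744), and *Frq2* had 4.20, 12.2, 4.19 and 7.41 CPM in WT and was at least 19.9-fold lower (adjusted p = 0.105). Exons of *CG31323* overlap *CG31086* and *CG6073*, and those of *Frq2* overlap *Hesr* on the other strand.

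*GluRIIA*, a glutamate receptor subunit of the muscle side of the neuromuscular junction, had 1.15, 0, 0 and 0.189 CPM in ΔN, against 17.4, 10.05, 10.4 and 7.70 CPM in WT (adjusted p = 0.0744). *GluRIIA* was also low in FL, with averages of 1.61 CPM in FL, 6.90 CPM in FLWF24 and 23.9 CPM in null. *Sf3b5*, a subunit of the spliceosomal SF3B complex, had 32.1, 35.7, 22.3 and 12.8 CPM in ΔN, against 81.5, 38.4, 49.7 and 45.0 CPM in WT (log2 fold change -1.51, SE 0.32, adjusted p = 0.0744). *Tina-1* had 142, 105, 92.4 and 114 CPM in ΔN, against 258, 216, 377 and 293 CPM in WT (log2 fold change -1.15, SE 0.25, adjusted p = 0.0761). *lncRNA:mimi*, *CG43102*, *CG17839* and *CG31321* completed the list, with adjusted p from 0.0744 to 0.101.

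The transcript of *chiffon* itself (*chif*, chr2L:16342430-16352628, reverse strand) was the check of the genotypes. It had 549, 483, 497 and 250 CPM in ΔN libraries 1 to 4, against 213, 270, 260 and 262 CPM in WT libraries 1 to 4. ΔN libraries 1 to 3 were above every WT library and ΔN library 4 was within the WT range. The log2 fold change was 0.79 (SE 0.23), which did not pass (adjusted p = 0.256). Without ΔN replicate 4 it was 1.05 and passed with an adjusted p of 0.0268. In the other genotypes *chif* averaged 29.1 ± 6.90 CPM in null, 238 ± 14.0 CPM in FL and 254 ± 40.9 CPM in FLWF24. Over FL and FLWF24 the ΔN level was higher and passed, by 0.84 on the log2 scale (SE 0.19, adjusted p = 0.0471). One row of counts stands for the whole gene, so the missing N-terminal coding part of the transgene could not be checked from the counts. The exons of *chif* also overlap those of *Hyls1*, which lies at the same coordinates and was not among the genes tested.

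None of the 5 partner genes of the Chiffon polypeptides passed, and the level of each overlapped between ΔN and WT libraries. *Cdc7*, the kinase bound by Chiffon-A, had 46.1, 33.8, 50.3 and 7.93 CPM in ΔN and 53.1, 34.0, 30.8 and 24.8 CPM in WT (log2 fold change -0.29, 95% interval -1.23 to 0.66). *Gcn5*, the acetyltransferase bound by Chiffon-B, had 59.8, 50.3, 40.8 and 44.6 CPM in ΔN and 56.1, 61.8, 48.4 and 48.8 CPM in WT (log2 fold change -0.21, 95% interval -0.75 to 0.34). For the CHAT subunits *Ada2b*, *Ada3* and *Sgf29* the intervals were -0.81 to 0.02, -0.89 to 0.21 and -2.55 to 0.82. These intervals include a decrease by more than 0.5 in all 5 genes. *Gcn5*, *Ada2b* and *Ada3* have exons that overlap *ver*, *PolI* and *CG7536* on the other strand.

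**Figure D4:**
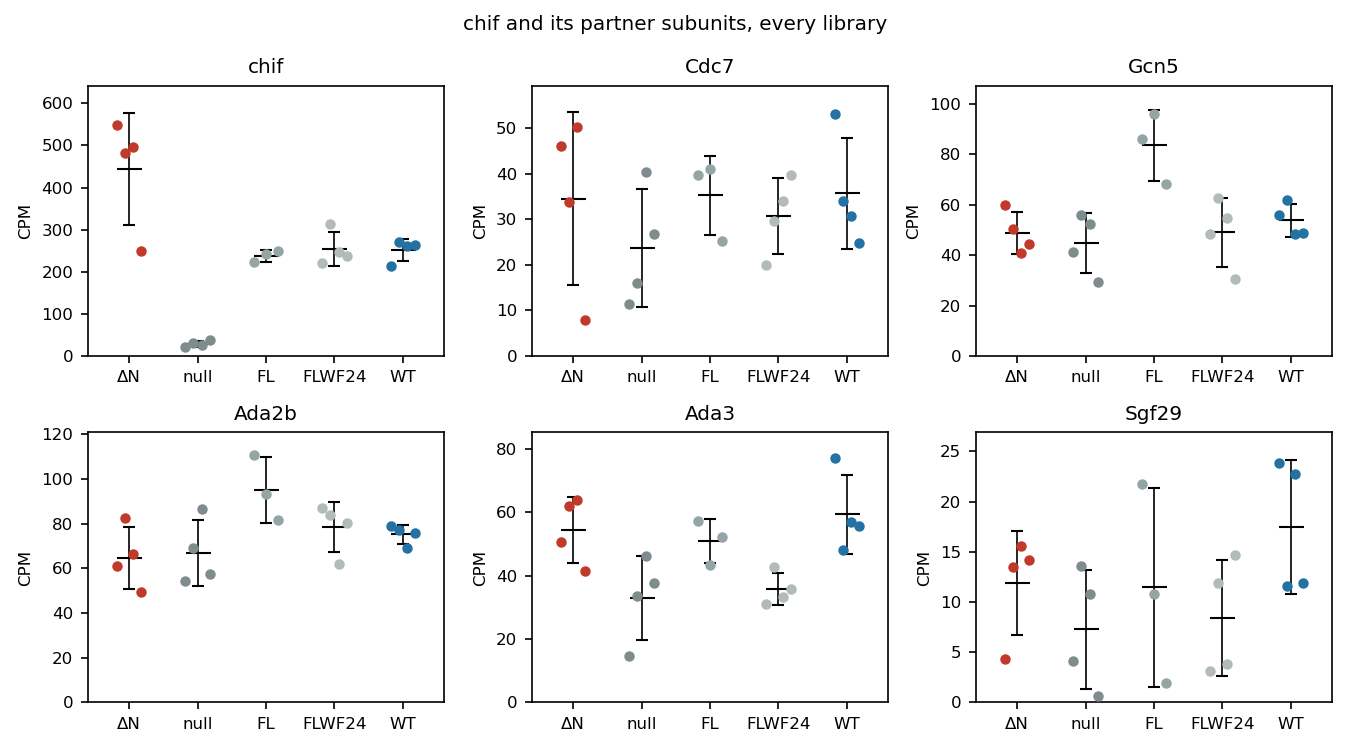
CPM of *chif* and of 5 genes of its partner subunits, with a point for each library of the 5 genotypes and mean ± SD as bars. For *chif*, 3 ΔN libraries lie at 483 to 549 CPM and 1 at 250 CPM, against 213 to 270 CPM in WT, and for the 5 partner genes the ΔN and WT libraries overlap.

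Among the 10 tested neighbours of *chif* within 20000 bases, none was called. *CG31817* had 13.4, 4.54, 11.4 and 14.9 CPM in ΔN and 4.59, 4.58, 3.22 and 3.52 CPM in WT (log2 fold change 1.49, SE 0.55, adjusted p = 0.351). *CaBP1*, a protein disulfide isomerase of the endoplasmic reticulum, had 348, 411, 348 and 357 CPM in ΔN and 292, 277, 283 and 285 CPM in WT (log2 fold change 0.26, SE 0.18, adjusted p = 0.658). *CG44405* and *CG42266*, next to *chif* on the same strand, averaged 3.84 ± 4.52 and 4.29 ± 4.79 CPM in ΔN and 0.257 ± 0.513 and 0.762 ± 0.749 CPM in WT. The level of *CG31817* was also 18.9 ± 8.03 CPM in null, 17.2 ± 5.33 CPM in FL and 11.7 ± 2.34 CPM in FLWF24.

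Gene lists for the processes of late embryos and for the known functions of CHAT and DDK are described by counts, beside the 3.06% of all tested genes that were higher and the 7.41% that were lower at an unadjusted p under 0.05. Heat shock proteins and chaperones, which refold proteins after stress, leaned towards higher levels in ΔN. At that threshold 7 of 24 tested members were higher and 0 were lower, and the list median was 0.42, against -0.11 for all genes. None passed the adjusted threshold against WT. *Hsp68* had 172, 47.1, 101 and 64.4 CPM in ΔN and 22.6, 39.5, 48.3 and 46.3 CPM in WT (adjusted p = 0.217), and *Hsp23* had 79.7, 42.2, 38.6 and 92.5 CPM in ΔN and 27.0, 30.9, 52.5 and 32.4 CPM in WT (adjusted p = 0.332). *Droj2*, an Hsp40 co-chaperone, had 517, 476, 449 and 403 CPM in ΔN and 330, 368, 319 and 325 CPM in WT, which do not overlap (adjusted p = 0.351). Over FL and FLWF24, *Hsp70Ba*, *Hsp68*, *Hsp23* and *DnaJ-1*, another Hsp40, passed and were higher in ΔN, 4 of the 24 against 0.334% of all tested genes. Their log2 fold changes were 2.73, 1.98, 1.51 and 0.88. The members *Hsp70Ba* and *Hsp68* were highest in ΔN library 1, which had the most reads assigned to genes and the fewest reads in all among the 8. Without this library the list had a median of 0.40 against WT, with 5 members higher and 0 lower at an unadjusted p under 0.05.

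Neuronal and synaptic genes leaned the other way. Of 42 tested, 38 had a negative log2 fold change, against 6992 of all 11978 genes, with a median of -0.46, and 7 were lower and 1 was higher at an unadjusted p under 0.05. *qvr* was the only call. *Syt1*, the calcium sensor of synaptic vesicle release, had 8.95, 0.404, 12.1 and 16.6 CPM in ΔN and 30.8, 39.5, 24.1 and 33.1 CPM in WT, which do not overlap (adjusted p = 0.436). *cac*, a calcium channel of nerve terminals, had 34.6, 5.96, 8.19 and 17.9 CPM in ΔN and 22.1, 53.6, 35.2 and 49.4 CPM in WT, which overlap (adjusted p = 0.457). *Appl*, the amyloid precursor-like protein of neurons, had 229, 254, 186 and 252 CPM in ΔN and 98.8, 141, 139 and 199 CPM in WT (log2 fold change 0.78, SE 0.31, adjusted p = 0.385). Without ΔN replicate 2 the median was -0.32 and 4 members were lower, without WT replicate 4 also 4 were lower, and without ΔN replicate 4 the median was -0.65 with 9 lower. Over FL and FLWF24 the median of the same 42 genes was 0.20. *Syt1* was lowest in ΔN library 2, the library with the lowest stage score. With the stage score in place of the factor of unwanted variation the list had a median of -0.62, with 10 lower and 1 higher. With neither, the median was -0.99, with 10 lower and 1 higher. It was -0.53 with 2 factors, with 8 lower and 1 higher. The 4 neuron markers *elav*, *nSyb*, *Syt1* and *brp* summed to 629 to 710 CPM in ΔN and 702 to 838 CPM in WT, and the 3 glia markers to 310 to 343 CPM in ΔN and 301 to 357 CPM in WT.

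Late muscle genes had a median of -0.39 over 28 tested members, with 1 higher and 3 lower at an unadjusted p under 0.05. Without a factor of unwanted variation the muscle median was -0.90, with 0 higher and 3 lower. It was -0.40 with 2 factors, with 1 higher and 3 lower. *Mlp60A*, a LIM protein of the sarcomere, had 43.7, 1.31, 7.39 and 71.9 CPM in ΔN and 84.4, 207, 152 and 151 CPM in WT, which do not overlap (log2 fold change -1.88, SE 0.69, adjusted p = 0.367). As for the summed muscle markers, ΔN libraries 2 and 3 were the low ones. The 3 lower members became 7 without ΔN replicate 1 and 1 without ΔN replicate 3 or WT replicate 4. Late cuticle genes, at 24 tested members, had 0 higher and 1 lower, with a median of 0.22 that gave no stable direction. It was -3.54 with 7 lower without ΔN replicate 4, -0.34 with 4 lower without WT replicate 1, -1.33 with 4 lower without a factor of unwanted variation and -1.38 with 8 lower with 2 factors. Leaving out WT replicate 4 gave 4 higher and 2 lower, leaving out WT replicate 3 gave 3 lower and leaving out ΔN replicate 1 gave 0, and the median also fell below 0 without null replicate 1 (-0.06) and in the fit that took the stage score as its covariate (-1.09). Myoblast genes, at 24, and Hox genes, at 12, had none in either direction.

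No gene of the ribosomal or respiratory lists passed the test against WT, and *sun* is not a member of the lists. Of 88 tested cytoplasmic ribosomal protein genes, 72 had a negative log2 fold change, against 6992 of all 11978 genes, and 19 were lower and 1 was higher at an unadjusted p under 0.05, with a median of -0.23. *RpS27* had 576, 475, 513 and 326 CPM in ΔN and 772, 599, 722 and 686 CPM in WT (log2 fold change -0.56, SE 0.19, adjusted p = 0.323). *RpL36* had 1133, 963, 813 and 460 CPM in ΔN and 1635, 928, 1349 and 1208 CPM in WT (log2 fold change -0.72, SE 0.23, adjusted p = 0.291). Of 71 mitochondrial ribosomal protein genes, 9 were lower and 2 were higher, and *mRpL36* had 14.6, 7.37, 0.682 and 4.34 CPM in ΔN and 55.0, 20.5, 18.9 and 54.4 CPM in WT (adjusted p = 0.160). The 19 lower cytoplasmic members became 12 without ΔN replicate 3, 5 without WT replicate 1, 11 without null replicate 4 and 12 without FLWF24 replicate 4. The 9 lower mitochondrial members became 15 without ΔN replicate 4 and 4 without WT replicate 1.

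Subunits of the respiratory chain and the ATP synthase were lower at 13 of 72 genes and higher at 0, and the libraries did not overlap at 14 of the 72, all lower in ΔN, against 3.52% of all genes. Without WT replicate 1 the 13 became 8. *UQCR-6.4*, a small subunit of complex III, had 14.1, 15.1, 16.7 and 17.9 CPM in ΔN and 37.8, 32.6, 32.0 and 36.0 CPM in WT (log2 fold change -1.04, SE 0.27, adjusted p = 0.186). *ND-B14.5B*, a subunit of complex I, had 42.9, 50.8, 22.3 and 16.1 CPM in ΔN and 78.7, 62.2, 58.1 and 61.7 CPM in WT (log2 fold change -1.08, SE 0.30, adjusted p = 0.223). Both passed against FL and FLWF24, with log2 fold changes of -1.35 and -1.22. The sizes of these differences are set against a median of all genes of -0.11, which was -0.03 with relative log expression and -0.22 with 2 factors of unwanted variation. The medians of the cytoplasmic ribosomal and respiratory lists were -0.16 and -0.20 with relative log expression and -0.20 and -0.24 with the upper quartile, and without WT replicate 1 they were -0.07 and -0.18. With relative log expression 9 members of each list were lower. The 13 lower respiratory genes became 24 without a factor of unwanted variation and 20 with 2 factors.

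Genes of DNA replication, the process in which DDK acts, showed few differences at an unadjusted p under 0.05 but leaned towards positive values. Of 41 tested, 30 had a positive log2 fold change, against 4986 of all 11978 genes. At that threshold 1 was higher and 1 was lower, with a median of 0.15. The median was 0.35 with 3 higher and 0 lower without a factor of unwanted variation. With 2 factors it was 0.12 with 0 higher and 1 lower. *Mcm10* had 81.1, 67.2, 35.4 and 35.7 CPM in ΔN and 32.4, 37.3, 18.8 and 28.4 CPM in WT (adjusted p = 0.460), and *Orc1* had 134, 102, 88.7 and 40.6 CPM in ΔN and 58.3, 40.7, 25.5 and 45.5 CPM in WT (adjusted p = 0.484). Of 46 mitotic genes, 30 had a positive log2 fold change, and 3 were higher and 0 were lower, with a median of 0.11. Their median was 0.38 with 6 higher and 1 lower without a factor of unwanted variation. With 2 factors it was 0.07 with 3 higher and 0 lower. *Cap-D2*, a condensin subunit, had 88.6, 79.7, 102 and 62.1 CPM in ΔN and 55.3, 40.3, 43.0 and 49.9 CPM in WT, which do not overlap (log2 fold change 0.63, SE 0.26, adjusted p = 0.403). *aurA*, the Aurora A kinase, had 32.3, 16.5, 30.4 and 20.02 CPM in ΔN and 9.80, 11.2, 13.9 and 9.53 CPM in WT (adjusted p = 0.448). The 3 higher mitotic genes became 0 without ΔN replicate 1 or 3, 5 without ΔN replicate 4, 1 without WT replicate 4, and 6, 7 and 5 without null replicates 1, 3 and 4. Against FL and FLWF24 the medians of the replication and mitosis lists were -0.20 and -0.25. Of 34 genes of SAGA, ATAC and other acetyltransferase complexes, 1 was higher and 0 were lower.

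**Figure D5:**
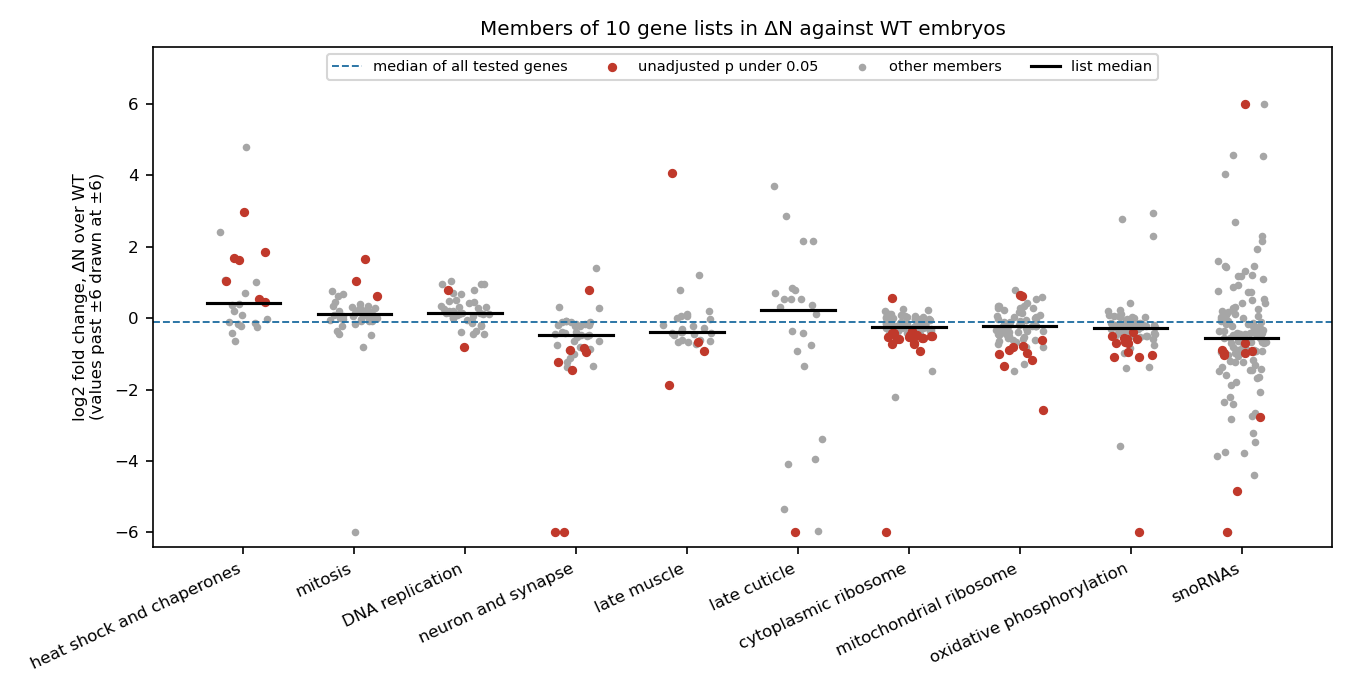
Log2 fold change of ΔN over WT for the tested members of 10 gene lists, with members at an unadjusted p under 0.05 in red, list medians as black bars and the median of all tested genes (-0.11) as a dashed line. The heat shock list has a median of 0.42 with 7 red members above 0, and the neuron, ribosomal and respiratory lists have medians of -0.46 to -0.23.

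Small nucleolar RNAs, guides of rRNA modification, had 9 lower and 1 higher of 130 tested at an unadjusted p under 0.05, with *snoRNA:CG32479-a* as the only call, and the 9 became 5 without WT replicate 3. *scaRNA:MeU5-C46* had 73.5, 103, 84.3 and 36.8 CPM in ΔN and 157, 105, 168 and 122 CPM in WT (adjusted p = 0.306). Detoxification genes had 6 higher and 7 lower of 90, with *Prx6c* as the only call. The 7 lower became 2 without ΔN replicate 1, 4 without ΔN replicate 2, 4 without null replicate 1 and 3 without FLWF24 replicate 3. *GstO2* had 30.6, 7.37, 29.6 and 25.7 CPM in ΔN and 48.4, 47.9, 60.6 and 44.6 CPM in WT (adjusted p = 0.256). In the mevalonate and juvenile hormone list 1 was higher and 4 were lower of 18, among them *Fpps*, the farnesyl diphosphate synthase, with 224, 85.7, 127 and 125 CPM in ΔN and 235, 286, 435 and 325 CPM in WT (adjusted p = 0.323). Among hemocyte and basement membrane genes, *Pxn*, a peroxidase, had 268, 161, 214 and 240 CPM in ΔN and 125, 155, 102 and 145 CPM in WT, whereas *PPO1*, a prophenoloxidase of crystal cells, had 59.9, 28.5, 41.4 and 60.0 CPM in ΔN and 72.0, 159, 128 and 125 CPM in WT. Neither passed (adjusted p = 0.353 and 0.331). Of 20 tested genes of dosage compensation and sex determination, 1 was higher and 2 were lower at an unadjusted p under 0.05. The list had 11 positive and 9 negative log2 fold changes and a median of 0.06. Its member *lncRNA:roX1*, an RNA of the male dosage compensation complex, had 984, 1061, 1288 and 1275 CPM in ΔN and 2076, 1501, 2075 and 1576 CPM in WT, which do not overlap (log2 fold change -0.77, SE 0.24, adjusted p = 0.289). The labels do not give the sex of the embryos.

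More genes separated ΔN from the other rescues than from WT by this test. In the contrast of ΔN with the mean of FL and FLWF24, 40 genes were called, which is 0.334% of those tested, with 12 higher (0.1%) and 28 lower (0.234%), and *qvr* was the only gene called in both contrasts. The difference between the 2 counts was not tested. The contrast with the rescues draws on 3 FL and 4 FLWF24 libraries, and that with WT on 4 libraries. Its SE was smaller for *chif* (0.19 against 0.23) and *RpL36* (0.20 against 0.23). The 2 counts therefore do not show which embryos ΔN lay closer to. Of the 28 lower genes, 11 encode cytoplasmic ribosomal proteins, among them *RpL36*, *RpS14b* and *RpL18*, whose log2 fold changes over WT were -0.72, -0.27 and -0.20. In these 3 genes FL and FLWF24 also lay above WT on average. *RpL18* averaged 706 CPM in ΔN, 822 CPM in WT, 1034 CPM in FL and 1492 CPM in FLWF24. In the same order, *RpS14b* averaged 148, 171, 240 and 367 CPM, and *RpL36* 842, 1280, 1437 and 2435 CPM. Of the respiratory list 2 members were among the 28, *UQCR-6.4* and *ND-B14.5B*. The superoxide dismutase *Sod1* and the spliceosomal *SmF* were also lower than WT without passing, with log2 fold changes over WT of -1.10 (adjusted p = 0.223) and -1.16 (adjusted p = 0.105). The higher genes included the 4 heat shock genes named above, *chif*, and *kcc*, the potassium chloride cotransporter, whose log2 fold change over WT was 0.70 (adjusted p = 0.247). The count of 40 was 25 without ΔN replicate 2, 21 without ΔN replicate 3, 18 without FL replicate 2, 5 without FL replicate 3, 20, 23 and 18 without FLWF24 replicates 1, 2 and 4, 23 without null replicate 4 and 26 without WT replicate 3.

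By a rule on read counts, genes with next to no reads in a group were found on the ΔN side alone. Of the 11978 tested genes, 53 had at most 3 reads over the 4 ΔN libraries and at least 10 reads in each WT library. Of these, 29 had 0 reads in ΔN and 4 were called, and 0 genes had the opposite pattern. The rule was uneven, as the opposite pattern needed 10 reads in ΔN library 4, which held 5161281 gene counts. The WT libraries held 8710630 or more, and the part of depth in these counts was not tested. The following 4 were singled out after their values were seen. *CCHa1-R*, a neuropeptide receptor, had 0 reads in ΔN and 746 in WT, a fold of at least 43.2 (adjusted p = 0.248). *TpnC41C*, a troponin C of muscle, had 0 reads in ΔN and 118 in WT, and *Cyp4p1*, the neighbouring relative of *Cyp4p2*, had 0 reads in ΔN and 327 in WT. *eIF4E3*, a cap-binding protein, had 0 reads in ΔN and 978 in WT, a fold of at least 58.8 (adjusted p = 0.111). Its level in the other genotypes was also low, at 0.897 CPM in null, 2.78 CPM in FL and 1.496 CPM in FLWF24.

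The imbalance extended to the number of genes detected. Of the 11978 tested genes, 2951, 2660, 2803 and 2384 had no read in ΔN libraries 1 to 4, against 2239, 1451, 1600 and 1477 in WT libraries 1 to 4. The groups did not overlap, and the test gave the smallest p that it can (two-sided exact permutation test, p = 0.0286, 0.0929 after adjustment over 13 measures). ΔN library 1, with the most reads assigned to genes of the 8, had the most genes at 0. At an equal depth of 5161281 gene counts, the expected number of genes detected was 8987, 9432, 9279 and 9787 in ΔN, against 9796, 10673, 10537 and 10690 in WT. ΔN library 4 and WT library 1 lay next to each other, and the other libraries were apart. ΔN library 4 had the highest stage score in ΔN (1.69), and WT library 1 the lowest in WT (-0.89). ΔN library 1, with the fewest genes detected, did not have the lowest score in ΔN (-0.04). The part of embryo age in the number of genes detected was not tested. FL libraries had 9814 to 10632 genes at this depth, FLWF24 libraries 9676 to 10843 and null libraries 10828 to 11625.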

How the data were processed

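RNA abundance was measured by RNA-seq in 19 libraries, of which 4 ΔN and 4 WT libraries are compared here. The authors' methods name Trimmomatic for trimming, HISAT2 for mapping to the BDGP6 genome and htseq-count (HTSeq 0.11.1) for counting. The deposited values are raw read counts per gene that the authors did not normalize. The header held 1 cell more than the rows, and its names were read in order. Of 17906 entries, 5 summary lines, 92 spike-ins, 2 reporters and 138 rRNA genes were left out. The summary lines, spike-ins and reporters held 76.3 to 96.0% of all reads in ΔN and 80.4 to 88.2% in WT. The rRNA genes held 0.67 to 6.08% of the reads assigned to genes in ΔN and 1.03 to 1.62% in WT. Genes were filtered by genotype with filterByExpr (11978 kept of 15055 with a read) and fitted over all 19 libraries with edgeR 4.0.16 (R 4.3.3), quasi-likelihood with robust estimation, trimmed mean of M-values scaling and 1 factor of unwanted variation from the replicates. Calls needed an adjusted p under 0.05 and a log2 change of 0.5 or more. Single library measures were tested by exact permutation. The fit was tested on simulated data. Alternatives included DESeq2 1.42.0. All per-sample columns were mapped, those of FL by genotype only. Coordinates are from the BDGP6 annotation.

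The named genes are every called gene, up to 10 further genes in each direction with the smallest p among those with non-overlapping libraries and at least 5 CPM in the higher group, *chif* and its partners, up to 4 members of each list, neighbours of *chif*, and calls against the other rescues or genes near 0 singled out after their values were seen. Some genes that the rule names are not reported here. The comparison, the lists and the rule were chosen with earlier results of these data known. The 4 libraries of a genotype are biological replicates per the labels, each from pooled embryos. Same-numbered ΔN and WT libraries did not deviate together (correlations -0.05, -0.10, 0.02 and 0.18), so the numbers were not taken as pairs.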

Additional observations from a re-analysis of the deposited data

Results flagged for a closer look

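Among 32 groups of 4 libraries examined for a library far from the others, 6 had one, where chance gives about 1 in 20. For *qvr*, *Tektin-C* and *Cyp4p2* this was the single ΔN library that held the only read, at 0.101, 0.189 and 0.114 CPM, with the other 3 at 0. Such a pattern is always flagged by the rule, so the rate of 1 in 20 does not apply to these 3 groups. WT replicate 4 had 53.1 CPM of *Tmtc2*, above the 33.1 to 35.6 CPM of the other WT libraries, and WT replicate 2 had 23.8 CPM of *Cyp4p2*, below 53.9 to 59.8 CPM. WT replicate 1 had 9796 genes detected at equal depth, below the 10537 to 10690 of the other WT libraries.

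Of the genes called against WT, the next genes with non-overlapping libraries and *chif*, 4 differed between ΔN and the other transgenic embryos by a test of that difference. The log2 fold change of ΔN over the mean of FL and FLWF24 was -6.69 for *qvr*, 2.73 for *Hsp70Ba*, -7.21 for *aspr* and 0.84 for *chif* (edgeR, adjusted p = 0.00213, 0.0135, 0.0357 and 0.0471). The fitted value of *aspr*, which had no reads in ΔN, depends on the prior count and is no bound.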

How the results depend on the processing

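The 9 calls against WT became 8 without a factor of unwanted variation, 37 with 2 factors, 4 with relative log expression, 4 with the upper quartile, 3 without a filter on low counts, 1 with at least 10 counts on average, 15 in a fit of the 8 libraries alone and 270 with DESeq2, which shared all 9. In the fit with a replicate block, over 16 libraries, 4 genes were called, 3 of them among the 9, and 958 had an unadjusted p under 0.05. Chosen after seeing the data, a fit without both ΔN replicates 1 and 4, which had the most and the fewest reads assigned to genes in ΔN, called 104 genes, 4 of them among the 9. Leaving out 1 library at a time gave 1 to 38 calls against WT and 5 to 57 against FL and FLWF24. The 40 calls against FL and FLWF24 became 15 without a factor, 23 with relative log expression and 416 with DESeq2. The stage score kept its sign, from -1.42 to -0.32. No named gene that was refitted changed direction under the 30 alternatives. Apart from *chif*, the ΔN and WT libraries of these genes do not overlap, and every alternative used the same libraries or a part of them. A change of direction was thus unlikely from the start, and its absence is no support for the direction. *qvr* lost its call in the fit of 8 libraries alone (adjusted p = 0.109) and held in the other 29. Of the other 8 called genes, *Prx6c* kept its call in 21 of 30 and *UK114* in 7 of 30. The causes of these changes were not tested. With 4 libraries a group and a shared spread that few libraries can move, differences below about the intervals given could not be resolved.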
